A study of Mus musculus with 4 samples.

Results

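The GDNF family receptors and ligands were followed through the cell types of the fetal mouse heart. The 6 genes were the GPI-anchored receptors Gfra1, Gfra2 and Gfra3, the shared receptor tyrosine kinase Ret, and the ligands Gdnf and Nrtn. They were taken by symbol from the 27998 genes of each matrix, and each had a UMI in at least 3 of the 4 libraries. The cells came from wild-type CD1 hearts at embryonic day 16.5, and 1 library of 10x Genomics 3′ reads had been made from each of 4 microdissected regions, which held the SAN, the AVN and His bundle, and the bundle branches and Purkinje fibres (BB/PF) on either side, left ventricle and right ventricle. The groups shared strain and stage, and the labels set them apart by region. With 1 library for each region, effects of region and of library cannot be told apart. How many hearts gave each library is not given in the sources used here, so a region had no replicate and regions were set side by side without a test.

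In the GDNF family, each ligand binds a preferred GFRA receptor on the cell surface, and the pair then recruits Ret, which carries the signal into the cell. GDNF prefers GFRA1, neurturin (Nrtn) prefers GFRA2 and artemin (Artn) prefers GFRA3. The family is best known for guiding and maintaining enteric, sensory and autonomic neurons, and in mice neurturin acting through GFRA2 is needed for a normal parasympathetic supply of several organs, the heart among them. A GFRA receptor on a cell without Ret can be shed or can present ligand to a neighbour, and Ncam1 has been described as another receptor for it.

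Cells with at least 500 genes were kept, which left 5934 of the SAN, 5645 of the AVN/His, 5100 of the left and 4356 of the right BB/PF library, with median depths of 8479.5, 9015, 8659.5 and 9272 UMIs. No cell had fewer than 1500 UMIs. Libraries shared 29 to 49 cell barcodes by pair. Cells were clustered without the genes of the pathway, and clusters were named from marker lists by a rule that was set after the clusters had been seen. The neuron-like cluster (18 cells, 13 of 15 neuron markers) and the Schwann-like cluster (46 cells, 9 of 9 markers) were found in the SAN library alone. SAN-like myocytes numbered 173 (9 of 9 markers), AVN/His-like myocytes 62 in a pair of sub-clusters of 41 and 21 cells (7 of 9 markers in each), and PF-like myocytes 167, of which 86 were left and 81 right (8 of 8 markers). The sub-cluster of 41 cells also had 6 of 7 atrial markers, and its 10 leading genes held 3 atrial markers (Sln, Myl7 and Myl4) and 1 AVN/His marker (Cacna2d2), so AVN/His-like values are given for each sub-cluster too and the tests were also run without it, an alternative added after the results had been seen. Another AVN/His sub-cluster of 39 cells reached 7 of 9 markers but none led it, and it stayed unnamed with 1039 cells in all. No doublets were removed, and 1.84% to 3.15% of the cells of a library had a Scrublet score over 0.2.

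The stretches just before the transcription starts of the 2 ligand genes are shown because both ligands were followed through the classes. They are the 120 bases before the start in RefSeq (GRCm38.p6), chr17:56757549-56757668 on the minus strand for Nrtn and chr15:7809928-7810047 on the plus strand for Gdnf, for which the first of 2 entries was used. Capitals mark a match to GGGCGG in Nrtn and to TATAAA in Gdnf.
Nrtn: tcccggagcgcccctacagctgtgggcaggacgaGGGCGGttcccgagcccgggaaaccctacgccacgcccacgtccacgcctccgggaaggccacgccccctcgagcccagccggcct
Gdnf: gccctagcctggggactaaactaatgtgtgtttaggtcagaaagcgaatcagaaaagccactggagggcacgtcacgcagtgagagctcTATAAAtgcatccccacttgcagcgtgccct
Both motifs were searched on both strands. The Nrtn stretch was 75.0% G and C with a GGGCGG 86 bases before the start, and the Gdnf stretch was 52.5% G and C with a TATAAA 31 bases before the start of the entry used. Among 32851 windows of the same length, 26.5% held GGGCGG and 6.34% held TATAAA, so either letter run is a description and not evidence of a bound factor.

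The 6 genes fell into different compartments. Of 222 Gfra3 UMIs in all kept cells, 174 (78.4%) lay in the Schwann-like cells, which were 0.219% of all cells. Neuron-like cells held 14 of 52 Ret UMIs (26.9%). Gfra1 was spread over fibroblast-like (96 of 206 UMIs), valve mesenchyme-like (43) and Schwann-like cells (25). Gfra2 had 622 UMIs in 526 cells of nearly every class. Nrtn, with 9055 UMIs, came mostly from atrial-like (3677) and ventricular-like cells (4305), and Gdnf had 46 UMIs in 45 cells. Because the reads cover the 3′ end and were not scaled per length, levels are compared between cells for a gene and not between genes.

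**Figure D1:**
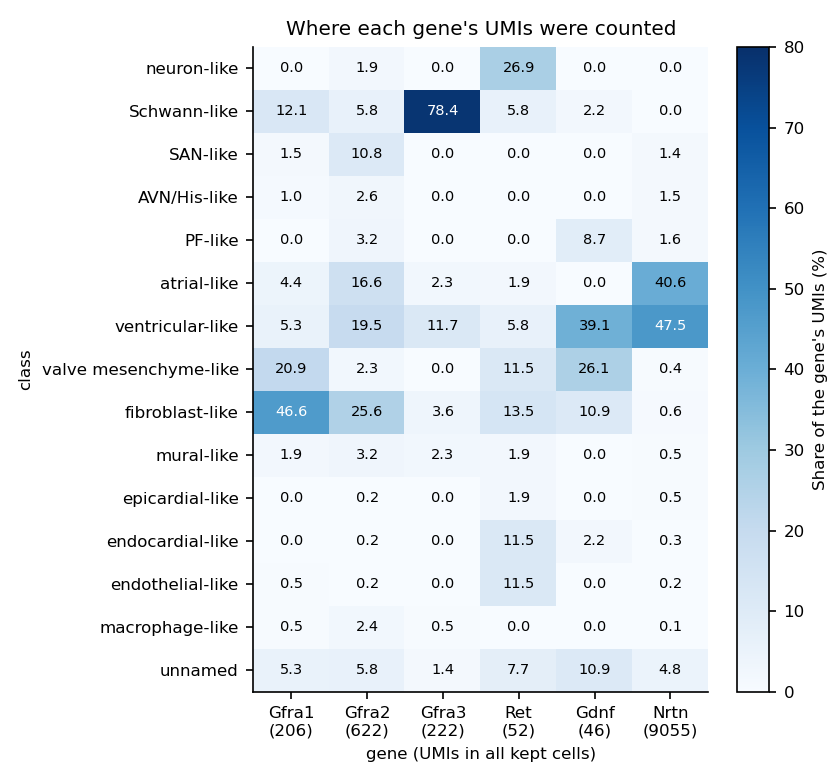
Heat map of the share of each gene's UMIs (colour and printed value, percent) that lay in each cell class (rows) for the 6 genes (columns, with their UMIs in all kept cells), over all 4 libraries. Schwann-like cells hold 78.4% of Gfra3, atrial-like and ventricular-like cells hold 40.6% and 47.5% of Nrtn, and fibroblast-like cells hold 46.6% of Gfra1.

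Schwann-like cells had all 3 GFRA receptors and little Ret. Gfra3, the artemin receptor, was at 5.12 UMIs per 10000 (95% exact Poisson interval 4.39 to 5.94), with a UMI in 35 of 46 cells and up to 15 UMIs in a cell. Gfra2 was at 1.06 UMIs per 10000 (0.742 to 1.47) in 22 cells, and Gfra1 at 0.736 (0.476 to 1.09) in 20 cells. These intervals, and all others given here, cover counting error only. Ret had 3 UMIs in 3 cells (0.088 per 10000), Gdnf 1 UMI, and Nrtn none in 46 cells, which allows a share of up to 6.52%. Of the 35 cells with Gfra3, 34 had no Ret UMI.

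The receptors of Schwann-like cells lay in overlapping cells. Of 22 cells with Gfra2, 21 had Gfra3, against 14 of the 24 without Gfra2. Of 20 cells with Gfra1, 17 had Gfra3, and 10 had Gfra2. Sox10, the transcription factor of the glial lineage, had a UMI in 27 of the 35 Gfra3 cells and in 6 of the 11 others. These are cells of 1 library, and the counts are a description.

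Neuron-like cells held Ret and Gfra2, and no Gfra1 or Gfra3. Ret was at 1.01 UMIs per 10000 (0.551 to 1.69) with a UMI in 7 of 18 cells, and Gfra2 at 0.865 (0.447 to 1.51), also in 7 cells. Both genes were seen together in 3 cells. Gfra1, Gfra3, Gdnf and Nrtn had 0 UMIs in 18 cells, which allows a share of up to 16.7% for each. All 18 cells had Phox2a and Isl1, transcription factors of autonomic neurons. Slc18a3, the vesicular acetylcholine transporter, had a UMI in 6 of the 7 Gfra2 cells and in 4 of the 11 others, while Th, tyrosine hydroxylase, had one in 2 of the 7 and 5 of the 11. The Gfra2 cells were deeper (median 9872 UMIs, against 6185 in the others), and the part of depth in these counts was not tested.

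The same receptors were sparse in the rest of the SAN library. The 5595 named non-neural cells of that library had 7 Gfra3 UMIs (0.00136 per 10000), 86 of Gfra1 (0.0167), 220 of Gfra2 (0.0426) and 9 of Ret (0.00174). The macrophage-like cells of the library, used as a measure of free RNA, had a Gfra2 UMI in 5.26%, a Gfra3 UMI in 0.526% and a Ret UMI in none of 190 cells, at a median of 5438.5 UMIs against 6859.5 in Schwann-like and 6765.5 in neuron-like cells. For Gfra2 this measure is uncertain, since endothelial-like and endocardial-like cells of the library lay lower. Barcodes with over 50% hemoglobin UMIs, 1676 in the 4 libraries, had no UMI of any receptor. Hemoglobin took most of their UMIs, so this is a weak limit. With every cell thinned to 1500 UMIs, the expected share with Gfra3 was 46.5% of Schwann-like cells, and the share with Ret was 13.6% of neuron-like cells, against 76.1% and 38.9% before. No cell was too shallow for this. Both neural classes came from 1 library, so no test was made.

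**Figure D2:**
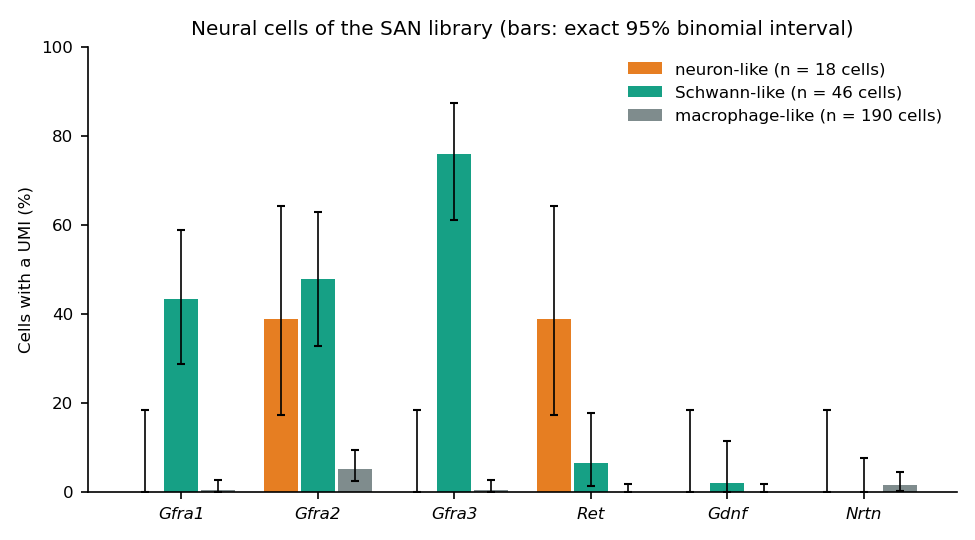
Bars give the share of cells with a UMI (y axis, percent) of the 6 genes in neuron-like, Schwann-like and macrophage-like cells of the SAN library, with exact binomial 95% intervals that cover counting error only. Gfra3 is at 76.1% in Schwann-like cells and at 0.526% in macrophage-like cells, and Ret is at 38.9% in neuron-like and 6.52% in Schwann-like cells.

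A search for neural cells by markers in the single cell, at least 4 markers of a list with a UMI, was used as an alternative to the clusters. It found 47 cells with Schwann markers in the SAN library, of which 43 were in the neural clusters, and Gfra3 had a UMI in 38 of them. It found 5 such cells in the AVN/His library, all 5 with Gfra3 (30 UMIs, 8.77 per 10000), and 1 in the left BB/PF library, with 6 Gfra3 UMIs. Gfra2 was in 23 of 47, 3 of 5 and the 1 cell. Of 25 cells with neuron markers in the SAN library, 20 were in the neural clusters, 8 had Ret and 7 had Gfra2. Of 4 such cells in the AVN/His library, 1 had Ret and none had Gfra2, at a median of 15042 UMIs against 7621 in the 25. The 1 such cell of the left BB/PF library, with 76486 UMIs, had none of Ret, Gfra2 and Nrtn. Nrtn, at 0 in both neural clusters, had a UMI in 3 of the 25 (6 UMIs) and 2 of the 4 cells with neuron markers (7 UMIs). It had one in 1 of the 47 with Schwann markers in the SAN library and in none of the 5 in the AVN/His library. All of these cells with Nrtn thus lay outside the neural clusters, and whether they were neural cells was not tested.

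Among myocyte classes, Gfra2 had its highest level in SAN-like cells, with an interval that overlapped that of AVN/His-like cells. It was at 0.432 UMIs per 10000 (0.335 to 0.548) in SAN-like cells, 67 UMIs in 43 of 173 cells, against 0.035 (0.028 to 0.043) in the atrial-like cells of the library, 96 UMIs in 89 of 2883 cells. AVN/His-like cells had 0.218 (0.124 to 0.354), 16 UMIs in 15 of 62 cells, against 0.083 (0.033 to 0.170) in 67 atrial-like and 0.013 (0.009 to 0.018) in 2597 ventricular-like cells of the library. PF-like cells were at 0.194 (0.108 to 0.319) on the right and 0.068 (0.022 to 0.158) on the left, against 0.016 and 0.012 in ventricular-like cells. The intervals of nodal and working cells did not overlap in the SAN library, nor did those of AVN/His-like and ventricular-like cells, whereas those of AVN/His-like and atrial-like cells did. In the order SAN-like, AVN/His-like, PF-like right and PF-like left, the intervals of each neighbouring pair overlapped.

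Shares of cells ran the same way. A Gfra2 UMI was in 24.9% of SAN-like, 24.2% of AVN/His-like, 16.0% of right and 5.81% of left PF-like cells, against 3.09% and 7.46% of atrial-like cells in the SAN and AVN/His libraries and 1.05% to 1.42% of ventricular-like cells. In macrophage-like cells it was 5.26% in the SAN, 1.25% in the AVN/His and 1.25% in the right library, and 0 of 20 in the left, which allows up to 15.0%. Median depths were 8432, 11212, 9500 and 8345 UMIs in SAN-like, AVN/His-like, right and left PF-like cells, against 5438.5, 7034, 6058.5 and 5906.5 in macrophage-like cells of the same libraries. Endothelial-like and endocardial-like cells lay lower than macrophage-like cells in the SAN library, with a Gfra2 UMI in 0 of 254 (up to 1.18%, median depth 9368.5 UMIs) and 1 of 462 cells (0.216%, 7930 UMIs). In the left library they had it in 0 of 145 (up to 2.07%, 8946 UMIs) and 0 of 47 cells (up to 6.38%, 7245 UMIs). How much of these shares came from free RNA was not tested. Thinned to 1500 UMIs, the expected shares were 5.78%, 3.57%, 2.93% and 1.15% for SAN-like, AVN/His-like, right and left PF-like cells, against 0.542% in atrial-like cells of the SAN library.

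**Figure D3:**
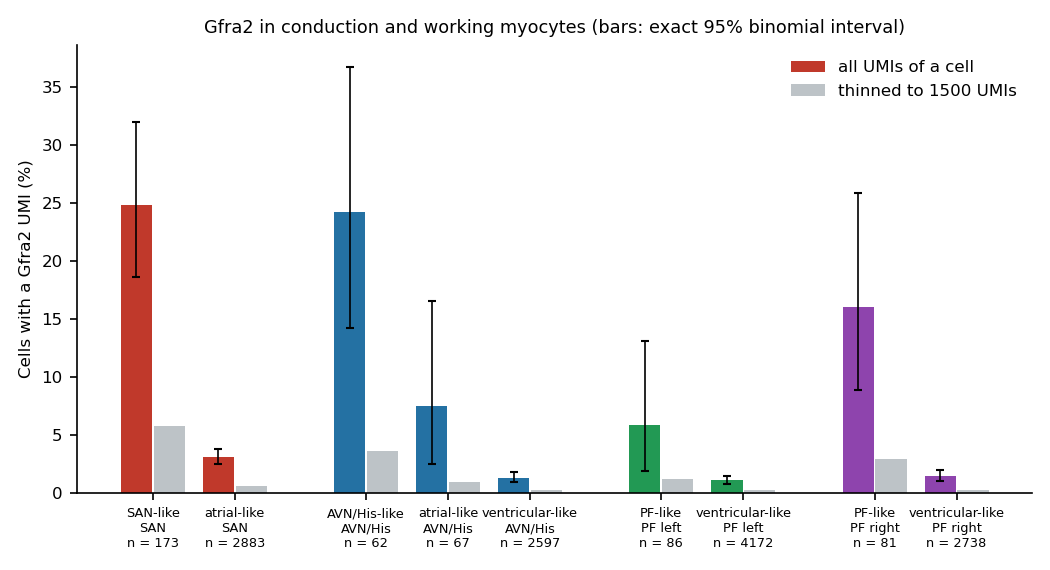
Share of myocytes with a Gfra2 UMI (y axis, percent) by class and library, with exact binomial 95% intervals. Coloured bars use all UMIs, 1 colour per library, and grey bars show the expected share with every cell thinned to 1500 UMIs. SAN-like cells reach 24.9%, AVN/His-like cells 24.2% and ventricular-like cells at most 1.42%.

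The levels of the pair of AVN/His sub-clusters had intervals that overlapped. Gfra2 had a UMI in 8 of 21 cells of the smaller (0.381 per 10000, interval 0.174 to 0.722) and 7 of 41 of the larger (0.141, 0.0565 to 0.290), and in 4 of the 39 unnamed cells beside them. The share in the smaller, 38.1%, was above the 24.9% of SAN-like cells, so no order of the nodes is read from these values. Across the 13 atrial-like clusters the share ran up to 21.1%, in a sub-cluster of 19 cells of the AVN/His library, and among the larger ones to 8.89% of 270 cells. With cells of at least 1000 genes and 2000 UMIs the clusters shifted, the AVN/His-like class took in 239 cells and its share with Gfra2 was 8.37%. In SAN-like cells, Isl1, a transcription factor of the pacemaker field, went with Gfra2 in 22 of 43 cells, against 31 of 130 without Gfra2. Hcn4, Tbx3 and Shox2 were counted in the same way and are not given here, so no wider link with pacemaker genes is read from Isl1. Ncam1 was in 28 of the 43 and 75 of the 130. The SAN-like cells with Gfra2 were somewhat deeper, at a median of 9533 against 8292.5 UMIs.

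For tests, the UMIs of each library and class of at least 10 cells were summed, SAN-like and AVN/His-like cells were joined as nodal-like, and the 32 sums of 11 non-neural classes were fitted in edgeR with library as a block. Nodal-like thus had 1 sum of SAN-like and 1 of AVN/His-like cells, so its p-values hold no spread between replicates of either node. The SAN library gave no ventricular-like sum, and the BB/PF libraries gave no atrial-like or nodal-like sum. Of the 6 genes, 3 passed the filter on low counts (Gfra1, Gfra2 and Nrtn), and Gfra3, Ret and Gdnf did not, so all but these 3 are given as values. In nodal-like against atrial-like and ventricular-like cells, 10.6% of 13685 genes were called (4.60% higher and 6.02% lower, which is 629 and 824 genes, and 871 and 656 with DESeq2). The median log2 fold change of all genes was -0.11, and 0.08 with DESeq2. Gfra2 was the 1 gene of the 3 that was called, higher in nodal-like cells at 3.38 ± 0.52 on the log2 scale (SE; edgeR quasi-likelihood test, adjusted p = 0.000109). It rested on the SAN: without that library the fold change was 2.21 and the adjusted p 0.191. Without the AVN/His sub-cluster of 41 cells it was 3.66 ± 0.53 (adjusted p = 6.03e-05). Against atrial-like cells alone it was 2.76 ± 0.65 (adjusted p = 0.0148), where 3.16% of all genes were called and 1.66% were called higher. Gfra1 (2.17 ± 0.94, adjusted p = 0.164) and Nrtn (0.17 ± 0.32, adjusted p = 0.844) did not pass.

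PF-like cells were set against ventricular-like cells in the same fit, a comparison added after the levels had been seen. Here 14.0% of genes were called (4.12% higher and 9.88% lower, which is 564 and 1352 genes, and 950 and 776 with DESeq2), with a median log2 fold change of -0.24 over all genes and 0.10 with DESeq2. Gfra2 was higher in PF-like cells by 3.05 ± 0.68 (adjusted p = 0.00286, edgeR), and Nrtn by 1.03 ± 0.34 (adjusted p = 0.0438). Without the right BB/PF library Gfra2 was at 2.29 with an adjusted p of 0.251, and with the stricter cell filter at 2.66 with 0.148. Nrtn missed the threshold without either BB/PF library (adjusted p = 0.279 without the left and 0.316 without the right), without the block (0.265), with DESeq2 (0.106) and without the AVN/His sub-cluster of 41 cells (0.0592). Gfra1 had no UMI in 167 PF-like cells, which allows up to 3.49% of left and 3.70% of right cells.

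Nrtn, the neurturin gene, was the ligand of the myocytes. Its level was 1.84 UMIs per 10000 (1.54 to 2.18) in AVN/His-like cells, 135 UMIs in 45 of 62 cells with up to 10 in a cell, against 1.06 (0.854 to 1.31) in atrial-like and 0.576 (0.548 to 0.605) in ventricular-like cells of that library. In SAN-like cells it was 0.799 (0.665 to 0.953), 124 UMIs in 71 of 173 cells, against 1.31 (1.27 to 1.35) in atrial-like cells of the library, 3587 UMIs in 1828 of 2883 cells. SAN-like cells lay below the atrial-like cells of their library, outside the counting intervals. Of the AVN/His-like cells, the sub-cluster of 21 lay above the atrial-like cells at 2.75 (2.12 to 3.5), while the interval of the sub-cluster of 41, at 1.41 (1.10 to 1.78), overlapped theirs. PF-like cells were at 0.922 (0.716 to 1.17) on the left and 1.03 (0.818 to 1.28) on the right, against 0.416 (0.395 to 0.437) and 0.427 (0.402 to 0.453) in ventricular-like cells.

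Shares with an Nrtn UMI were 72.6% of AVN/His-like, 41.0% of SAN-like, and 46.5% and 59.3% of left and right PF-like cells, against 63.4% and 65.7% of atrial-like and 28.7% to 40.1% of ventricular-like cells. Macrophage-like cells of a library had it in at most 5.0%, and the hemoglobin-dominated barcodes in 0.835%. Thinned to 1500 UMIs, the expected share was 23.3% of AVN/His-like, 11.2% of SAN-like and 17.5% of atrial-like cells of the SAN library. With the stricter cell filter 55.6% of the 239 AVN/His-like cells had Nrtn, against 65.7% of atrial-like cells of that library in the main clustering. The clusters shifted with that filter, so these shares are not of matched classes.

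Some nodal and PF-like cells had UMIs of both Gfra2 and Nrtn. Of 43 SAN-like cells with Gfra2, 17 had Nrtn, against 54 of the 130 without Gfra2. Of 15 AVN/His-like cells with Gfra2, 13 had Nrtn, against 32 of 47. Of 18 PF-like cells with Gfra2, 13 had Nrtn, against 75 of 149. In SAN-like cells Nrtn was thus no more frequent with Gfra2 than without it. The part of depth in these counts was not tested. Ret had no UMI in the SAN-like, AVN/His-like or PF-like cells, which allows up to 1.73% of SAN-like and 4.84% of AVN/His-like cells with a UMI. This limits cells with a UMI and not cells that express Ret, since in neuron-like cells, where Ret was at 1.01 UMIs per 10000, a UMI was seen in 7 of 18. Gdnf had no UMI in SAN-like and AVN/His-like cells, with the same limits, and had 1 UMI in left and 3 UMIs in right PF-like cells.

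**Figure D4:**
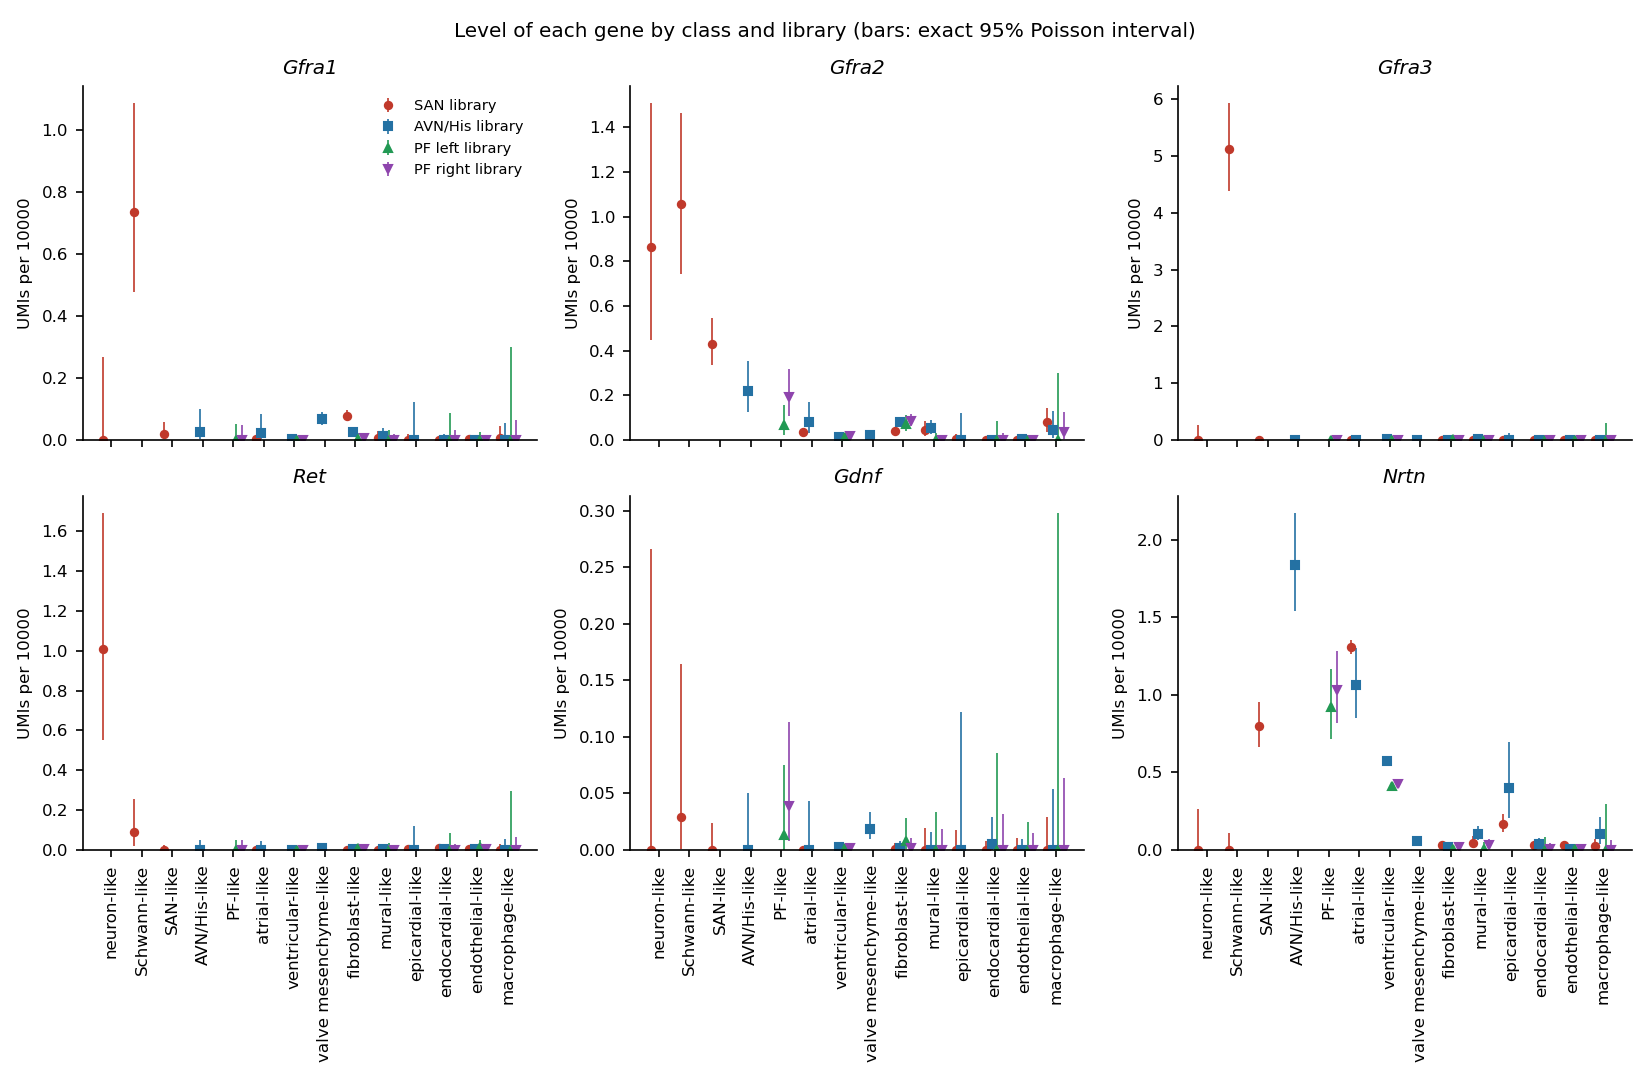
UMIs per 10000 (y axis) of the 6 genes, 1 panel each, by cell class (x axis) and library (colour and symbol), with exact 95% Poisson intervals that cover counting error only. Nrtn is highest in AVN/His-like cells at 1.84 and Gfra3 in Schwann-like cells at 5.12. Among myocyte classes Gfra2 is highest in SAN-like cells at 0.432, where its interval overlaps that of AVN/His-like cells.

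Outside the myocytes Nrtn was low, with the epicardial-like cells in between. These had 0.398 UMIs per 10000 (0.206 to 0.695) in the AVN/His library, 9 of 25 cells, and 0.167 (0.115 to 0.233) in the SAN library, 25 of 169 cells. Fibroblast-like, endocardial-like, endothelial-like and mural-like cells ran from 0 to 0.104. Each class with sums from at least 2 libraries was compared with the mean of the other non-neural classes, 10 contrasts in all. Nrtn was called higher in all 4 myocyte classes: by a log2 fold change of 3.31 ± 0.28 in nodal-like (adjusted p = 4.17e-10, with 18.9% of genes called higher), 3.91 ± 0.37 in PF-like (3.52e-09, 16.3%), 3.47 ± 0.26 in atrial-like (3.76e-11, 20.3%) and 2.77 ± 0.24 in ventricular-like cells (2.39e-10, 31.3%), all by edgeR. In either direction 31.1%, 30.2%, 32.6% and 48.7% of genes were called in these contrasts. It was called lower in 5 of the 6 other classes, at log2 fold changes between -1.40 in mural-like and -3.57 in endothelial-like cells. The share of all genes called lower there was 15.0% in mural-like, 22.2% in endothelial-like, 20.1% in fibroblast-like, 17.0% in endocardial-like and 21.6% in macrophage-like cells (38.2%, 49.3%, 49.2%, 41.0% and 45.4% in either direction). In epicardial-like cells, where 27.5% of genes were called, it was at 0.53 ± 0.43 with an adjusted p of 0.424. Nrtn did not pass between atrial-like and ventricular-like cells, at 0.64 ± 0.40 (adjusted p = 0.408), a comparison also added later, in which 7.23% of genes were called, 3.43% higher and 3.79% lower.

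Gfra2 and Gfra1 were both called higher in fibroblast-like cells than in the other classes. Gfra2 was at 0.039 UMIs per 10000 in the SAN, 0.081 in the AVN/His, 0.070 in the left BB/PF and 0.085 in the right BB/PF library, in 2.61% to 7.01% of cells. In the SAN library its share of 2.61% stood between 5.26% of macrophage-like and 0.216% of endocardial-like cells. Against the other classes it was called higher, by 1.82 ± 0.39 (adjusted p = 0.000369, edgeR, with 29.1% of genes called higher), as it was in nodal-like (4.22 ± 0.48, 9.67e-08) and PF-like cells (3.18 ± 0.71, 0.000965). It was called lower in endocardial-like (-4.49 ± 1.14, 0.00239) and endothelial-like cells (-4.70 ± 1.10, 0.000848), where it had 1 UMI each in 809 and 916 cells. Those fitted values rest on near-zero counts, and both calls were lost without the SAN library. In PF-like cells the call was lost without the right BB/PF library (2.15, adjusted p = 0.195).

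Gfra1, the GDNF receptor, differed between libraries in fibroblast-like cells, which was not tested. It was at 0.078 UMIs per 10000 (0.061 to 0.098) in the SAN and 0.026 (0.015 to 0.040) in the AVN/His library, with 1 UMI in 287 left and 3 UMIs in 542 right cells of the BB/PF libraries. It was called higher in fibroblast-like cells than in the other classes, by 3.75 ± 0.58 (adjusted p = 1.66e-05, edgeR), but not by DESeq2 (2.51, adjusted p = 0.103). In 1 SAN cluster of 450 fibroblast-like cells it had a UMI in 8.67%. Valve mesenchyme-like cells, named in the AVN/His library alone, had 43 UMIs in 36 of 900 cells (0.068 per 10000, 0.049 to 0.092). In macrophage-like cells there was 1 UMI in the SAN library.

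**Figure D5:**
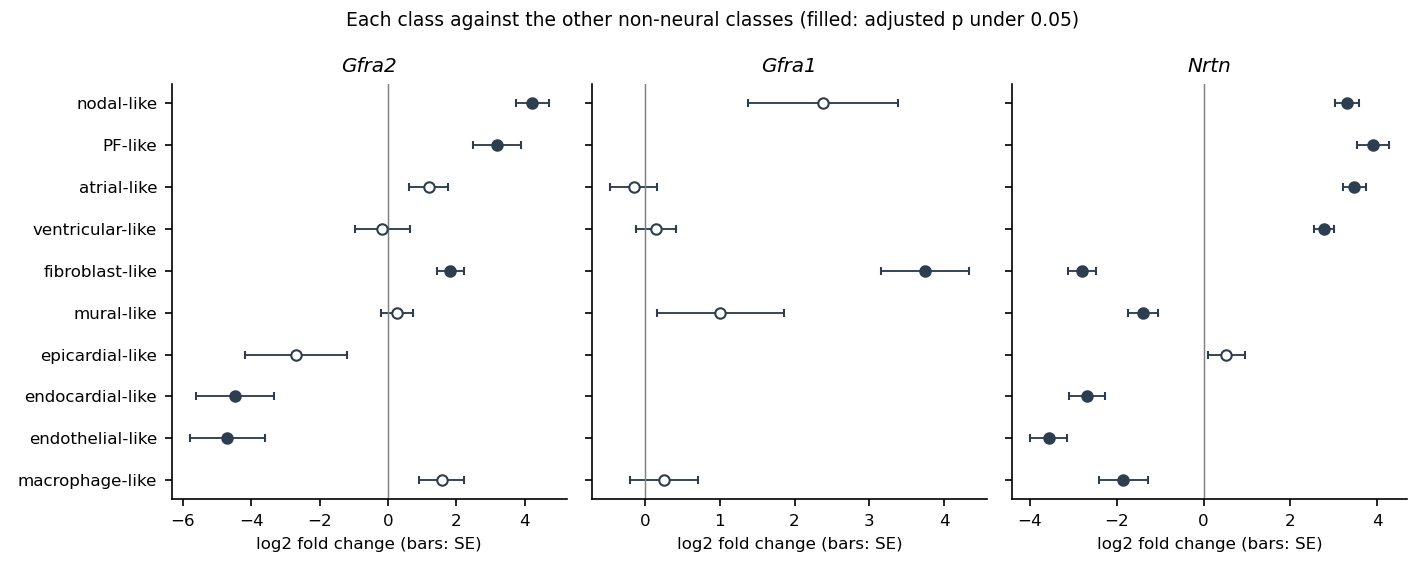
Log2 fold change of Gfra1, Gfra2 and Nrtn (x axis) in each class against the mean of the other non-neural classes, with the standard error as bars and filled points where the adjusted p was under 0.05. The standard error was derived from the fold change and the F statistic. Points are left out where it was over 5, or was not derived because the F statistic was very small. Nrtn lies to the right in the 4 myocyte classes (2.77 to 3.91), and Gfra2 lies furthest right in nodal-like cells at 4.22.

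Gdnf, the founding ligand, was scarce in every class, and Ret outside the neuron-like cells. The 46 Gdnf UMIs were spread over 18 ventricular-like, 11 valve mesenchyme-like (12 UMIs, 0.019 per 10000, 0.010 to 0.033), 5 fibroblast-like, 4 PF-like, 5 unnamed cells and 1 cell each of the Schwann-like and endocardial-like classes. The SAN library, which held the neural clusters, had 3 of them, and the AVN/His library 22. Ret had 9 UMIs in the named non-neural cells of the SAN library. Over all 4 libraries it had 6 UMIs in each of the endothelial-like, endocardial-like and valve mesenchyme-like classes and 7 in fibroblast-like cells. At most 1.38% of the cells of any such class and library had a Ret UMI. At this depth such shares are close to the limits that 0 UMIs allow, and no order was read from them.

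Of the other family genes, Artn, the ligand of GFRA3, had 52 UMIs in 51 cells. Of these, 31 lay in ventricular-like and 6 in Schwann-like cells, where 5 of 46 cells (10.9%) had it, against 0.216% to 0.501% of the ventricular-like cells of a library. Pspn had 4 UMIs and Gfral, the receptor for Gdf15, none. Gfra4, the persephin receptor, had 249 UMIs. It was at 0.103 UMIs per 10000 in SAN-like cells (16 UMIs in 11 cells), against 0.003 in atrial-like cells of the library, and at 0 in AVN/His-like and PF-like cells. It was called higher in nodal-like cells than in working myocytes, by 3.69 ± 0.87 (adjusted p = 0.00687, edgeR), with all of its nodal UMIs in the SAN library. It was also called higher in fibroblast-like (1.5 ± 0.59, 0.038) and mural-like cells (1.95 ± 0.66, 0.0219) than in the other classes, the fibroblast call being lost with DESeq2 (adjusted p = 0.0847) and without the block (0.0626), and the mural call without the right BB/PF library (0.158). Gdf15, a distant relative of the ligands, was called higher in macrophage-like cells (5.73 ± 0.49, 1.64e-09, with 23.9% of genes called higher), with 43 UMIs in 19 of 370 cells, and in mural-like cells (1.75 ± 0.66, 0.0392).

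Between nodal and working myocytes, 3 of the 30 tested genes of the wider pathway lists were called, 2 higher and 1 lower, beside 10.6% of all genes (4.60% higher and 6.02% lower). The share over all genes includes genes that shaped or named the clusters, while the listed genes were kept out of clustering. It is thus not a like rate for the lists, here and in the other contrasts. Of 5 coreceptors, all tested, 1 was lower and none higher, with a median log2 fold change of -0.26 against -0.11 over all genes. Nrp1, the neuropilin that also binds semaphorins, was the 1 that fell (-1.31 ± 0.36, adjusted p = 0.0184, edgeR). Of 20 signalling adaptors of Ret, 17 were tested and 2 were higher, Dok4 (1.05 ± 0.28, 0.0166) and Ptpn11 (0.55 ± 0.16, 0.028), with a median of 0.24. None of 8 feedback regulators and targets of receptor tyrosine kinases was called (median 0.59). The calls of Nrp1, Dok4 and Ptpn11 were each lost when the SAN library was left out (adjusted p = 0.53, 0.109 and 0.278) and when the AVN/His sub-cluster of 41 cells was left out (0.172, 0.505 and 0.764), and Dok4 was at -0.74 against atrial-like cells alone.

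In PF-like against ventricular-like cells, Sorl1, a sorting receptor described for GDNF and GFRA1, was higher by 3.45 ± 0.70 (adjusted p = 0.00164, edgeR), the 1 coreceptor of 5 that was called, beside 14.0% of all genes (4.12% higher and 9.88% lower). Its level was 0.18 UMIs per 10000 in left and 0.21 in right PF-like cells, against 0.0154 and 0.0145 in ventricular-like cells of those libraries. The adaptor Dok5 was higher by 2.41 ± 0.66 (0.0155), and 2 of 8 feedback genes were higher, Dusp6, a phosphatase of ERK kinases (1.77 ± 0.57, 0.0361), and Spred1, an inhibitor of RAS signalling (1.26 ± 0.32, 0.00864). The list median was 0.88 for the feedback genes, 0.20 for the 17 adaptors and 0.02 for the coreceptors, against -0.24 over all genes. The calls of all 4 genes were lost without the left BB/PF library (adjusted p of 0.0777, 0.258, 0.612 and 0.518 for Sorl1, Dok5, Dusp6 and Spred1), and those of Dok5 and Dusp6 without the right (0.104 and 0.121).

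In the neural cells the pathway genes were given as values. Ncam1, the adhesion molecule, had a UMI in 18 of 18 neuron-like (9.08 per 10000) and 36 of 46 Schwann-like cells (3.06 per 10000), while macrophage-like cells of the library had it in 5.79%. Dusp6 was at 1.29 per 10000 in Schwann-like cells, in 52.2% of them, and at 0 in neuron-like cells, against 0.55 in macrophage-like cells. The adaptor Shc2 had a UMI in 22.2% of neuron-like and 8.70% of Schwann-like cells, while macrophage-like cells had it in 2.11%, and Gab2 in 22.2% of neuron-like cells and none of the Schwann-like cells.

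Genes with the profile most like a receptor were ranked by Pearson correlation of log2(CPM + 1) over the 34 sums of a library and class, among 14534 genes with at least 50 UMIs. These values are descriptions, since sums of a library share its depth. Nearest to Gfra2 were Shank1 (r = 0.81), Baiap2l2 (0.81), Slc22a17 (0.79), Nlgn3 (0.78) and Kif1a (0.77), and r was between 0.65 and 0.80 without the 2 neural sums. Nearest to Gfra3 were Foxd3 (0.99), Sox10 (0.98), Ajap1 (0.93), Cdh19 (0.92) and St8sia5 (0.91). Without the neural sums r was 0.92 for Foxd3, 0.81 for Sox10 and between 0.12 and 0.34 for the other 3. The sums left still held the 5 AVN/His cells and the 1 left BB/PF cell that had Schwann markers and Gfra3. Nearest to Ret were Htr3a (0.94), Sv2c (0.93), Vat1l (0.93), Tlx2 (0.91) and Hoxc4 (0.91), and without the neural sums Sv2c was at 0.49 and the other 4 between -0.11 and 0.09.

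The genes lie on separate chromosomes in the annotation of GRCm38, and the identifiers in the files matched it. Gfra2 spans 70890120 to 70979838 on the plus strand of chromosome 14, Gfra1 spans 58235604 to 58455909 on the minus strand of chromosome 19, Ret spans 118151745 to 118197718 on the minus strand of chromosome 6, and Gfra3 spans 34689898 to 34720387 on the minus strand of chromosome 18. Nrtn spans 56751325 to 56757530 on the minus strand of chromosome 17 and Gdnf 7810846 to 7837575 on the plus strand of chromosome 15. The RefSeq starts used for the sequences of these ligands lie upstream of the starts in this annotation.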

How the data were processed

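Each of the 4 heart regions gave 1 single-cell library of 10x Genomics 3′ reads. The deposited values are counts of UMIs per gene and cell with no normalization, which the authors made with Cell Ranger against mm10, per the labels and the methods of the study. Cell Ranger's version is not given in the sources used here. The 4 libraries held 58029660, 57766525, 50940848 and 49328589 UMIs in 6342, 6001, 5452 and 5010 barcodes. The imaging data of the study were not analysed here.

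Cells with at least 500 genes and 1000 UMIs were kept. Counts were log normalized, UMI number and ribosomal share were regressed out, and 2000 variable genes without the pathway genes, 10 principal components and 30 neighbours were used for Leiden clustering (scanpy 1.11.5, Python 3.11.15, resolution 1 and 0.5 for sub-clusters), in 3 zones. A marker counted where its average log FC reached 0.25 and 10% or more of the cluster's cells had a UMI of it. A class needed at least 50% and 3 of its markers, and a conduction class 2 of every 3 with 1 among the 10 leading genes. Myocyte clusters were those with over 20 UMIs of Tnnt2, Ttn, Myh6 and Myh7 per 10000. Doublets were scored with Scrublet and kept.

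UMIs were summed per library and class of at least 10 cells and tested with edgeR 4.0.16 (R 4.3.3, TMM factors, filterByExpr, quasi-likelihood test, library as a block), with Benjamini-Hochberg adjustment over all genes tested and a threshold of 0.05. An SE given with an edgeR value is the absolute log2 fold change divided by the square root of the F statistic. The code was tested on simulated data. DESeq2 1.42.0, other filters, leaving out a library, doublet removal, other clusterings and, added after seeing the data, leaving out an AVN/His sub-cluster led by atrial markers were the alternatives. Intervals are exact (Poisson for levels, Clopper-Pearson for shares, 95%), and a count of 0 was read as a limit of 3 counts. Thinned shares are expected values over all draws of 1500 UMIs. The planned tests of neural cells were replaced by values, since both neural classes came from 1 library. Promoter entries were found for 3 of the 6 genes. The genes named are the 6 members, 5 other family genes, those of 3 pathway lists that passed the test, and the 5 genes most like each of Gfra2, Gfra3 and Ret. Neural pathway genes were chosen after their values were seen. Members and lists were chosen with earlier results of these data known.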

Additional observations from a re-analysis of the deposited data

Results flagged for a closer look

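Nrtn differed in sign between the nodes when each was set against the atrial-like cells of its own library. The difference in UMIs per 10000 was -0.51 for SAN-like minus atrial-like cells and 0.775 for AVN/His-like minus atrial-like cells. In the AVN/His library the sub-cluster of 21 cells lay outside the interval of the atrial-like cells (2.75, 2.12 to 3.5, against 1.06, 0.854 to 1.31), and the interval of the sub-cluster of 41 overlapped it (1.41, 1.10 to 1.78). With the stricter cell filter the share with Nrtn was 55.6% of 239 AVN/His-like cells, against 65.7% of atrial-like cells in the main clustering. The clusters shifted with that filter, so these shares are not of matched classes. There was 1 library for each region, so the difference between the nodes was not tested, and the 67 atrial-like cells of the AVN/His library came from 2 sub-clusters.

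Gfra3 appeared in cells that the clusters did not name as neural. In the AVN/His library 5 cells with at least 4 Schwann markers held 30 Gfra3 UMIs, of the 32 in that library, and in the left BB/PF library 1 such cell held all 6. None of these cells was in a neural cluster. By class, the 32 UMIs of the AVN/His library were 26 in 5 ventricular-like cells, 25 of them in 4 cells of a sub-cluster of 101, 5 in 1 mural-like cell and 1 in 1 fibroblast-like cell.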

How the results depend on the processing

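Over all alternatives 309 of 367 fold changes kept direction and call, 52 lost the call and 6 changed sign, and 138 of 157 counts of called genes were within 1.5 times. Of 55 shares, 38 stayed within the counting interval of the main value and 17 did not. The 9 differences in level set neural cells against the other classes of the SAN library, or neuron-like against Schwann-like cells. In all 36 runs they stayed within ranges set by the counting intervals of the main values. For neuron-like against Schwann-like cells the range ran between the extremes of both intervals, which is wide. All runs drew on cells of the same library, so they are no test on other cells. No difference of nodal cells was among the 9. The cause of the changes below was not tested. Nodal-like against working myocytes, the 1453 calls became 675 with stricter cells, 956 with all variable genes, 433 against atrial-like cells alone and 305 to 1240 without 1 library (305 without the SAN). PF-like against ventricular-like cells gave 237 to 2023 calls without 1 library (237 without the left BB/PF), and atrial-like against ventricular-like cells 534 with stricter cells and 319 to 595 without 1 library, against 989. Against the other classes, leaving out 1 library gave 1834 to 4028 calls for atrial-like, 1383 to 3539 for epicardial-like, 2230 to 3935 for nodal-like and 2391 to 3870 for PF-like cells. Gfra2 in nodal-like cells ran from 2.21 (without the SAN, adjusted p = 0.191) to 3.8. Nrtn in nodal-like cells, which was not called, was -0.87 without the AVN/His library (-0.87 to 0.81 over all 4), -0.12 with stricter cells and -0.15 against atrial-like cells alone. Gfra4 there was -2.27 without the SAN library and up to 4.99 otherwise, Dok4 -0.74 against atrial-like cells alone, and Nrtn in epicardial-like cells -0.12 without the AVN/His library (up to 1.41).

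Thinning to 1500 UMIs lowered every share it was run on. The Gfra2 shares became 5.78% of SAN-like, 3.57% of AVN/His-like, 1.15% of left and 2.93% of right PF-like, 14.2% of Schwann-like and 10.2% of neuron-like cells. Gfra3 and Gfra1 became 46.5% and 12.5% of Schwann-like cells, Ret 13.6% of neuron-like cells, and Nrtn 11.2% of SAN-like, 23.3% of AVN/His-like and 17.5% of atrial-like cells. The SAN-like share with Gfra2 was 33.0% with all variable genes and 33.9% with stricter cells, and the AVN/His-like shares were 8.37% (Gfra2) and 55.6% (Nrtn) with stricter cells. Without the AVN/His sub-cluster of 41 cells, an alternative chosen after seeing the data, the AVN/His-like share with Gfra2 was 38.1%, and the calls of Nrp1, Dok4 and Ptpn11 in nodal-like and of Nrtn in PF-like cells were lost. Classes of the same library were paired through library as a block in the fit, and without the block the Gfra2 value in nodal-like cells was 3.45. Regions could not be paired, because each had 1 library. Depth limits Gdnf, Ret and Gfra3 outside the neural cells, where UMIs were too few for a test.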
